A study of Ambystoma mexicanum with 8 samples.

Results

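The cells described here are T cells of the axolotl (Ambystoma mexicanum) limb that carried LEF1 and CCR7 transcripts and had no transcript of GZMA or ICOS. Members were chosen by measured values, the transcript counts of the cells themselves. A cell was a member when it held at least 2 unique molecular identifiers (UMIs, 1 per captured transcript) of CD3E and CD3G together and at least 2 of LEF1 and CCR7 together. It also had 0 UMIs of GZMA, 0 of ICOS, fewer than 2 of MKI67 and TOP2A, fewer than 3 of CD79B, fewer than 3 of EPCAM, CDH1 and DSP, and under 20% of its UMIs on haemoglobin genes. These limits left 2899 of 35013 cells (8.28%), which were 36.6% of the 7914 T cells that met the MKI67 and TOP2A limit. The cells are called LEF1/CCR7 T cells below.

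The study sampled limb tissue of wild-type axolotls, either from intact animals or labelled contra. The series text describes limbs that were homeostatic or had been activated systemically, at 14 days after an amputation, and its title names adrenergic signalling as the subject. Live cells were sorted with calcein AM, propidium iodide and the DNA dye Hoechst for a 2C DNA content, and their 3' transcript ends were sequenced by the 10x method. The protocol calls 2C cells non-dividing, while the series text calls them dividing. There were 3 intact samples (numbered 1, 2 and 4) and 4 contra samples (1, 2, 4 and 5). No label says that samples came from separate animals, so every p-value measures only the spread between these samples, which may be technical. The labels give no age.

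T cells that have not met antigen circulate between blood and lymphoid organs. In mammals, the transcription factors LEF1 and TCF7 act in such cells, CCR7 guides them to lymphoid tissue, and the receptors S1PR1 and S1PR4 bind sphingosine 1-phosphate, with S1PR1 serving exit from lymphoid organs. KLF2 drives transcription of S1PR1. Effector T cells carry instead chemokines such as CCL5, the death ligand FASLG and the cystatin CST7.

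Intact samples 1, 2 and 4 held 533, 549 and 248 members. Contra samples 1, 2, 4 and 5 held 744, 259, 319 and 247. Their median depth was 11413 UMIs and 2772 genes per cell, and the summed members of a sample held between 2074764 and 9343622 UMIs. Of the members, 2469 (85.2%) held UMIs of both LEF1 and CCR7, 374 (12.9%) of LEF1 alone and 56 (1.93%) of CCR7 alone. The LEF1 UMIs came from a gene model that the files name TCF7 / LEF1, so these 2 relatives cannot be told apart, and the other model named LEF1 had 0 UMIs in members.

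Of the 5 markers given for these cells, only S1PR4 played no part in choosing them. Its level was 391, 423 and 397 CPM (a gene's UMIs scaled to an equal total in each sum of cells) in the intact samples and 431, 481, 393 and 486 CPM in the contra samples. In GZMA T cells, which held at least 2 GZMA UMIs and no ICOS UMI, the levels were 76.6, 41.1 and 44.1 CPM in intact and 33.1, 37.9, 35.1 and 20.7 CPM in contra samples. S1PR4 was thus higher in LEF1/CCR7 T cells in every sample, with no overlap. It was found in 83.9% of members and 14.0% of GZMA T cells, against 3.76% of haemoglobin-rich cells, 4.93% of epidermal-marker cells and 73.6% of CD79B cells. Median depths were 11413, 11382, 28111, 21917 and 12136 UMIs in that order, and with each cell thinned to 3000 UMIs the shares were 60.9%, 6.82%, 0.58%, 0.74% and 36.2%. The chemokine gene CCL5 goes against the word naive that has been attached to these cells: 98.7% of members held a CCL5 UMI (84.2% after thinning), against 17.5% of haemoglobin-rich cells (2.98%). They are therefore named here by their genes only. Among markers of other cell types, summed neutrophil markers were at 219 to 524 CPM in members over the samples, nearly all from LYZ, which was at 307 CPM in all members and 336 CPM in GZMA T cells. Summed dendritic cell markers were at 114 to 160 CPM in members and 101 to 173 CPM in GZMA T cells, and macrophage markers at 13.2 to 61.0 CPM in members. Summed markers of B cells were at 11.8 to 22.2 CPM in members over the samples, those of NK or innate lymphoid cells at 31.7 to 53.0 CPM and those of endothelial cells at 3.25 to 16.1 CPM, with overlapping groups. The B cell sum did not include the immunoglobulin gene IGHM. Its level was 286 CPM in contra sample 1 members, where 1 cell held 2641 of the 2668 UMIs. In members of the other samples IGHM was at 1.51 to 6.75 CPM.

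The gate was applied to the same cells whose transcripts are compared next, so differences from other T cells are descriptions with no test. Of 6185 gene symbols at 10 CPM or more, 46 (0.744%) were higher in members than in GZMA T cells in all 7 samples with a median log2 difference of at least 1, and 99 (1.60%) were lower by the same measure, on the scale of log2(CPM + 10). Among 19 naive and quiescence genes that the gate did not use, 8 were higher and 0 lower, with a median log2 difference of 0.75 beside 0.00 over all symbols. Of the 19, 5 reached 10 CPM in members only, and 4 of these were among the 8. Of the 14 at 10 CPM in both sets, 4 were higher and 0 lower, with a median of 0.41. Over all 23 genes of the list in the files the counts were also 8 and 0, with a median of 0.59. The 8 were S1PR4, S1PR1, KLF2, FOXP1, SATB1, ETS1, RUNX1 and GATA3. Among 10 effector genes, 0 were higher and 7 lower, with a median of -1.24. Of the 10, 4 reached 10 CPM in GZMA T cells only, and 3 of these were among the 7. Of the 6 at 10 CPM in both sets, 0 were higher and 4 lower, with a median of -1.36. Over all 16 genes in the files the counts were also 0 and 7, with a median of -0.82. A gene under 10 CPM in both sets can hardly reach a log2 difference of 1 on this scale. Counts over all genes of a list, here and below, could therefore hardly differ from those with the filter. They are no check of the filter. For a gene that passed through 1 set alone, the filter fixed the direction of its summed level but not the measure counted. Over all symbols, 17 of 340 that passed in members only were higher. Of 299 that passed in GZMA T cells only, 25 were lower. These counts are descriptions only. The 7 were CCL5, CCL3L1, IFNG, FASLG, PRDM1, CST7 and KLRB1.

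Transcription factors made up most of the 8 higher genes of the naive and quiescence list, which itself holds many such factors. KLF2 stood at 183, 201 and 200.2 CPM in the intact members and at 185, 139, 182 and 155 CPM in the contra members. In GZMA T cells it ranged from 11.3 to 40.8 CPM over the samples, so the sets did not overlap. KLF2 was not particular to T cells. A UMI of it was found in 71.5% of members, 73.1% of CD79B, 63.0% of epidermal-marker and 9.33% of haemoglobin-rich cells. Thinned to 3000 UMIs per cell, these shares were 37.8%, 33.9%, 21.7% and 1.36%. SATB1, a chromatin organiser needed in thymic T cell development, was at 97.8 CPM in members, 9.79 in GZMA T cells, 66.6 in ICOS T cells and 18.6 CPM in T cells with 0 or 1 UMI of LEF1 and CCR7. Its members ranged from 86.3 to 112 CPM over the samples. SATB1 is thus not low in every other T cell set, since the ICOS T cells lay nearer to the members. A SATB1 UMI was found in 55.0% of members, 43.0% of epidermal-marker cells and 10.8% of CD79B cells (thinned 23.7%, 8.08% and 2.80%). ETS1, a factor of lymphocyte development, was at 672 against 330 CPM, and GATA3, a factor of T cell development and helper differentiation, at 20.9 against 2.01 CPM.

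Receptors for homing split in direction. Of 13 homing and adhesion genes, 4 were higher (S1PR1, S1PR4, CXCR3 and the integrin subunit ITGA4) and 2 lower, of which CXCR6 is described here. Of the 4, S1PR1 and ITGA4 reached 10 CPM in members but not in GZMA T cells. An S1PR1 UMI was found in 21.9% of members, 28.2% of CD79B cells and 39.3% of epidermal-marker cells. With each cell thinned to 3000 UMIs the shares were 6.95%, 9.06% and 7.22%. Of the 10 genes at 10 CPM in both sets, 2 were higher and 2 lower. Over all 18 genes of the list in the files that the gate did not use, the counts were also 4 and 2, which the scale made nearly certain. ITGA4 was at 46.8 CPM in members and 3.99 in GZMA T cells. CXCR3, a receptor for interferon-induced chemokines, was at 339 against 155 CPM. The chemokine receptor gene CXCR6 was at 11.1 against 76.2 CPM.

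In the receptor signalling list of 13 genes, 1 was higher and 2 lower. The higher gene was the costimulatory receptor CD28, at 93.7 CPM in members, 13.3 in GZMA T cells and 40.7 in ICOS T cells. The kinase FYN (77.2 against 202 CPM) and the adaptor GRAP2 (51.7 against 126 CPM) were the lower pair. The CD3 chains, which the limits required in both sets, differed less. CD3E was at 590 against 679 CPM and CD3G at 460 against 494 CPM. CD8B was the only 1 of 3 listed coreceptor genes whose symbol was in the files. It was at 55.9 CPM in members, 45.3 in GZMA T cells, 53.6 in ICOS T cells and 49.5 CPM in the LEF1/CCR7-low T cells.

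Effector genes were lower but not silent in LEF1/CCR7 T cells. CCL5 was at 866, 976 and 1180.1 CPM in intact members and at 1015, 762, 960 and 781 CPM in contra members, against 2549.5 CPM in GZMA T cells. CST7 was at 155 against 1041 CPM, FASLG at 17.0 against 204 CPM and the cytokine gene IFNG at 7.20 against 89.3 CPM. CTSW, the lymphocyte cathepsin W, was found at 438 CPM in members, 680 in GZMA T cells, 2093 in ICOS T cells and 1007 CPM in LEF1/CCR7-low T cells. A CTSW UMI was present in 86.3% of members and 6.55% of haemoglobin-rich cells.

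In the regulatory list of 9 genes, 0 were higher and 4 lower (TIGIT, HAVCR2, IL10 and RORA). Of the 4, IL10 reached 10 CPM in GZMA T cells only. Of the 5 genes at 10 CPM in both sets, 0 were higher and 3 lower. Over all 14 genes of the list in the files that the gate did not use, the counts were also 0 and 4, which the scale made nearly certain. The checkpoint receptors TIGIT and HAVCR2 were at 27.9 against 76.0 CPM and 13.3 against 94.6 CPM. FOXP3, the factor of regulatory T cells, was at 1.65 CPM in members and 16.8 in ICOS T cells, and CTLA4 at 1.48 and 95.2 CPM. Among 19 adrenergic and cAMP genes, ADRB1, which encodes the beta-1 adrenergic receptor, was lower (9.58 against 39.3 CPM) and 0 were higher. ADRB1 reached 10 CPM in GZMA T cells only, so the filter fixed the direction of its difference over all samples summed. Of the 18 genes of that list at 10 CPM in both sets, 0 were higher and 0 lower. Over all 29 in the files, 0 were higher and 1 lower, which the scale made nearly certain. An ADRB1 UMI was found in 9.49% of members and 9.56% of haemoglobin-rich cells, whose depth was higher (medians 11413 and 28111 UMIs). Thinned to 3000 UMIs, it was 2.88% and 1.09%, with 6.03% in CD79B cells. Of 19 mTOR and PI3K genes, PIK3R5, a regulatory subunit of PI3K gamma, was higher (94.5 against 42.8 CPM). Immediate early, interferon, cell cycle and ribosomal protein genes gave 0 higher and 0 lower, over 18, 8, 8 and 78 symbols.

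**Figure D1:**
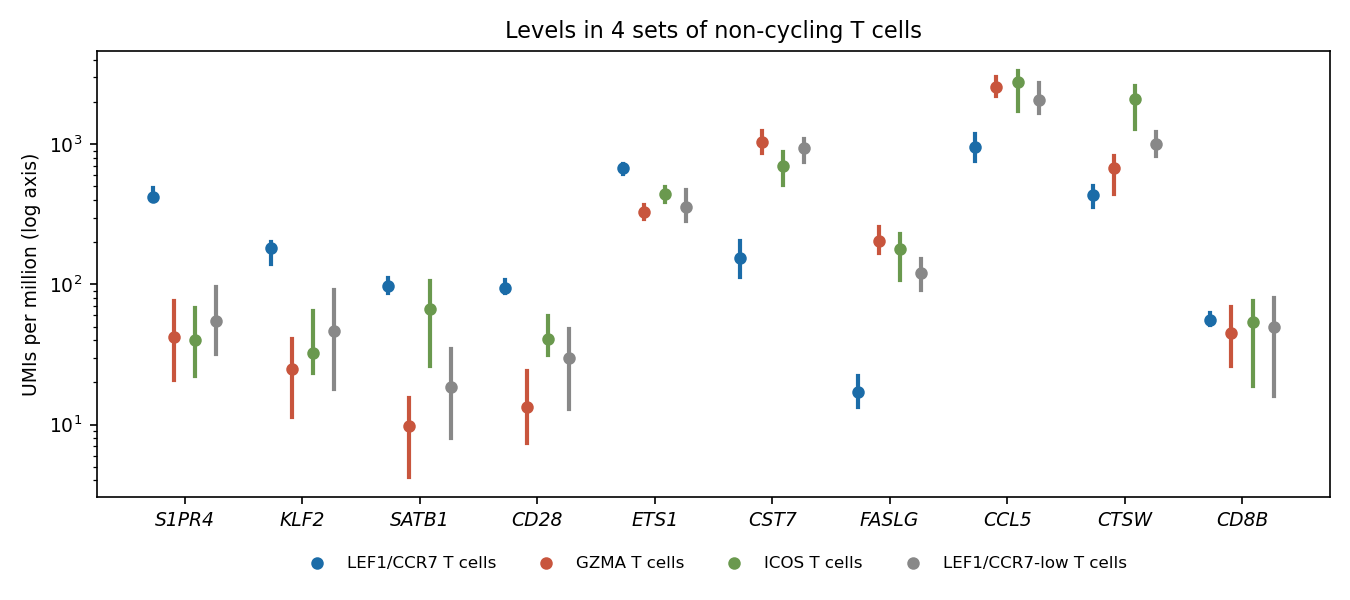
Levels of named genes in LEF1/CCR7, GZMA, ICOS and LEF1/CCR7-low T cells, as UMIs scaled to CPM on a log axis; points are all samples summed and bars the range over the 7 samples. S1PR4 lies between 391 and 486 CPM in LEF1/CCR7 T cells and between 20.7 and 76.6 CPM in GZMA T cells.

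Outside the lists, symbols with the largest difference in their least favourable sample included HS6ST1, which encodes a heparan sulfate sulfotransferase, at 218 CPM in members and 21.2 in GZMA T cells. DNMT3B, a DNA methyltransferase, was at 64.6 against 10.9 CPM, and P2RY8, a G protein-coupled receptor of lymphocytes, at 148 against 47.1 CPM. On the low side, LGALS1 (galectin-1) was at 319 against 1793 CPM, FLT3LG, the ligand of FLT3, at 67.6 against 684 CPM and the orphan receptor gene GPR25 at 56.1 against 361 CPM.

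Levels varied with the number of LEF1 and CCR7 UMIs in a cell, which is the value that set the boundary. Of the cells that met every other limit, 211 had 0 such UMIs, 184 had 1 and lay just outside, 197 had 2 and lay just inside, 442 had 3 or 4 and 2260 had 5 or more. S1PR4 stood at 24.6, 90.4, 175, 259 and 466 CPM along these bins. CST7 stood at 1039, 833, 570, 360 and 94.3 CPM in the same order. In each bin KLF2 and CD28 were higher, and CCL5 and FASLG lower, than in the bin before it, and no break marked the limit of 2 UMIs.

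**Figure D2:**
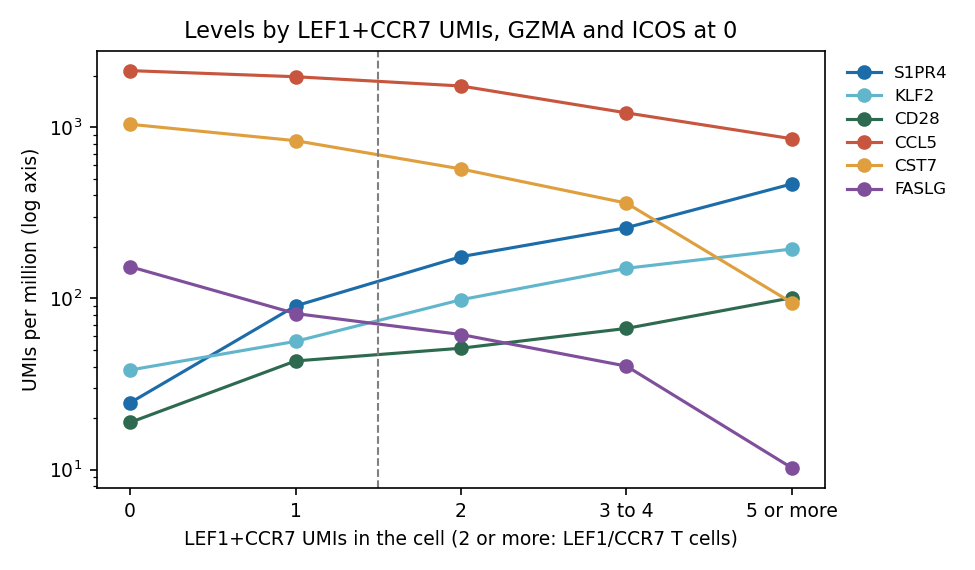
Levels in CPM (log axis) of genes that the gate did not use, by the number of LEF1 and CCR7 UMIs per cell, in cells that met all other limits. S1PR4 goes from 24.6 to 466 CPM and CST7 from 1039 to 94.3 CPM, with no step at the limit of 2 UMIs.

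The members were not uniform. The genes that varied most between members, all samples pooled, included LGALS1, CCL3L1, the haemoglobin genes HBD and HBG1, the heat shock gene HSPA1B, CST7, the cytokine gene LTA and CCL5, with a variance of Pearson residuals of 23.5 for LGALS1 and 15.2 for CST7 beside a median of 1.08 over 6423 symbols. For some of these, few cells held much of the total: the top 1% of members held 42.2% of CCL3L1 UMIs, 47.8% of LTA UMIs and 65.8% of IFITM10 UMIs. Levels of some also differed between samples, HBD from 1064.3 to 3244.5 CPM. HSPA1B ranged from 580 to 1428 CPM over the samples, and the groups overlapped, at 598 to 1428 CPM in intact and 580 to 1242 CPM in contra samples.

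CST7 split the members, a split chosen after its values were seen and given with no test. At least 2 CST7 UMIs were found in 479 members (16.5%, exact 95% interval 15.2 to 17.9%, counting error only), and 2149 (74.1%) had 0. The share with 2 or more was 14.8%, 16.2% and 14.9% for the intact group and 19.6%, 19.7%, 13.8% and 13.4% for the contra group, which overlapped. It was 85.7% in GZMA T cells, 5.64% in CD79B cells and 0.990% in haemoglobin-rich cells. The 479 cells had a median of 13023 UMIs and the 2149 cells 11015.

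Members with CST7 had more transcripts of other effector genes and fewer of genes that were higher in members than in GZMA T cells. This held in 7 of 7 samples for each of the following genes. FASLG, LGALS1, TNFSF14, S1PR4, SATB1 and CD28 came from a ranking by the least favourable sample. For them that ranking made 7 of 7 nearly certain. FASLG was at 64.0 CPM with CST7 and 5.72 without, CCL5 at 1857.5 and 733 CPM, CTSW at 963 and 305 CPM and LGALS1 at 943 and 144 CPM. TNFSF14, a TNF family ligand, was at 69.5 and 1.82 CPM. On the other side, S1PR4 was at 138 CPM with CST7 and 499 without, SATB1 at 24.4 and 118 CPM, CD28 at 44.8 and 108 CPM and KLF2 at 95.1 and 206 CPM. The genes of the gate were also lower with CST7, LEF1 at 318 and 532 CPM and CCR7 at 156 and 259 CPM. CD3E, another gate gene given for comparison, was at 607 and 585 CPM. Not every gene kept 1 order over the samples. IL7R was lower and LTA higher with CST7 in 6 of 7 samples.

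**Figure D3:**
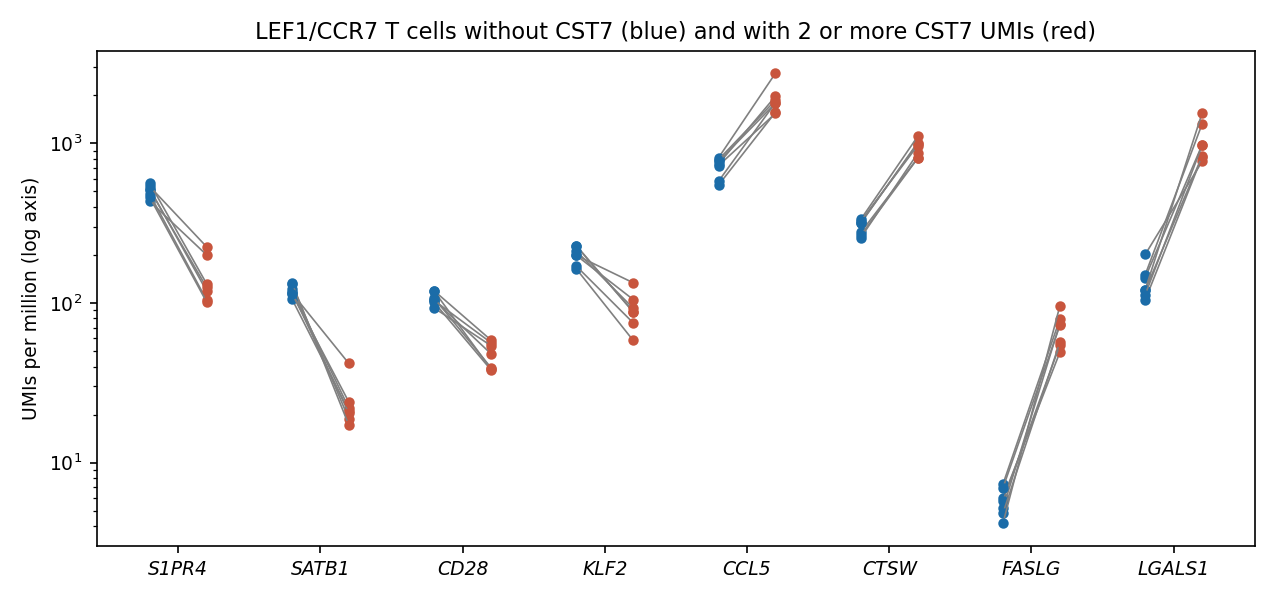
Levels in CPM (log axis) of named genes in LEF1/CCR7 T cells with at least 2 CST7 UMIs and with 0, 1 point per sample, with lines joining the same sample. FASLG is at 64.0 CPM with CST7 and 5.72 without, and S1PR4 at 138 and 499 CPM.

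A CD8B UMI was found in 911 members (31.4%, exact 95% interval 29.7 to 33.2%), against 0.824% of haemoglobin-rich cells, 0.326% of epidermal-marker cells and 0.939% of CD79B cells. Other T cells lay nearer, at 20.1% of GZMA, 18.2% of ICOS and 20.8% of LEF1/CCR7-low T cells. Thinned to 3000 UMIs per cell, the share was 13.6% in members and 10.1%, 10.3% and 11.2% in those 3 sets. A split by CD8B was also chosen after values were seen and has no test. The 911 cells had a median of 11762 UMIs and the members without a CD8B UMI 11218. A member without a CD8B UMI may still have carried its transcript. Members with CD8B had less CST7 (86.5 against 188 CPM), FASLG (11.8 against 19.4 CPM) and LGALS1 (168 against 391 CPM) than those without, in 7 of 7 samples. They had more of the gate gene LEF1 (557 against 460.0 CPM) and of SATB1 (112 against 90.9 CPM), also in 7 of 7. S1PR4 was also higher with CD8B (465 against 403 CPM) and CCL5 lower (849 against 998.5 CPM), each in 7 of 7 samples. CST7, LGALS1, LEF1, SATB1 and CCL5 came from a ranking by the least favourable sample. For them that ranking made 7 of 7 nearly certain. Some other genes of these groups had no such order. KLF2, CD28, CCR7, CTSW and CCL3L1 were higher with CD8B in 4 of 7 samples and lower in 3. CTSW was at 440.3 against 437 CPM. No gene model was read with the symbol CD4 or CD8A, so these other coreceptor genes could not be measured by symbol.

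The contra samples were compared with the intact samples over the 7 samples. LEF1/CCR7 T cells made up 10.4%, 11.2% and 5.58% of all cells of the intact limbs. In the contra limbs they made up 12.9%, 5.93%, 6.70% and 4.37%. The groups overlapped, with means of 9.07% ± 3.05 (SD, n = 3) and 7.47% ± 3.74 (n = 4), and the difference did not pass a two-sided exact permutation test (p = 0.600, 0.714 adjusted over 4 tests). The smallest p that 4 samples against 3 allow is 0.0286. Of the T cells that met the MKI67 and TOP2A limit, they were 37.8%, 42.8% and 30.2% in intact and 35.5%, 33.8%, 38.2% and 35.2% in contra samples (exact permutation p = 0.714). Without intact sample 2 that difference changed from -1.22 to 1.71 percentage points. With each cell thinned to 3000 UMIs before the limits were applied, this share was 24.4%, 30.5% and 23.25% in intact samples. In contra samples it was then 22.1%, 22.9%, 23.24% and 23.47%, overlapping only through contra sample 5, with means of 26.0% and 22.9%. The thinned gate took 1835 cells, of which 1428 were members, so membership depended on depth. A share of sorted and filtered cells does not give the number of cells in a limb.

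**Figure D4:**
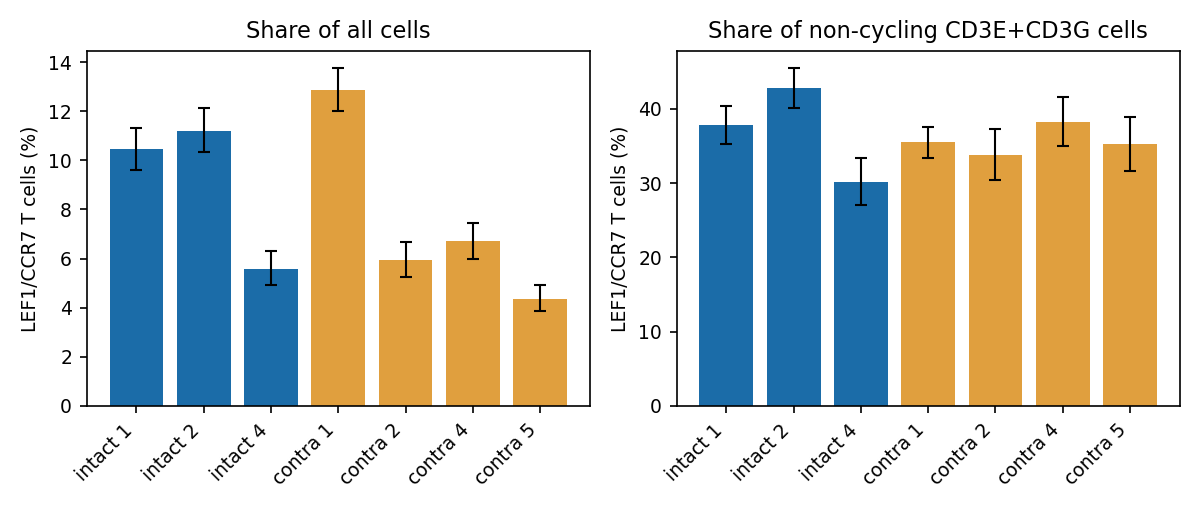
LEF1/CCR7 T cells as a percentage of all cells and of T cells that met the MKI67 and TOP2A limit, with 1 bar per sample and exact 95% binomial intervals that cover counting error only. Intact samples span 5.58 to 11.2% of all cells and contra samples 4.37 to 12.9%.

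The share of members with a CD8B UMI was 33.4%, 33.3% and 31.0% for the intact group and 32.3%, 28.6%, 29.2% and 26.7% for the contra group, overlapping only through contra sample 1. The means were 32.6% ± 1.34 (n = 3) and 29.2% ± 2.30 (n = 4), with an exact permutation p of 0.0857 (0.343 adjusted). Among same-numbered samples the share was lower in contra in 3 of 3 pairs (exact sign-flip p = 0.25, the smallest that 3 pairs can give). Depth moved alongside: the median UMIs per member averaged 11824 ± 1319 in intact and 10298 ± 1899 in contra samples (exact permutation p = 0.343). Thinned to 3000 UMIs per cell, the CD8B share was 13.7% in intact and 13.5% in contra samples.

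Across genes, edgeR's quasi-likelihood test on UMIs summed per sample called 0 of 12314 gene models between contra and intact LEF1/CCR7 T cells at an adjusted p of 0.05. At an unadjusted p under 0.05 there were 308 (2.50%), of which 187 were higher in contra and 121 lower, and in 366 (2.97%) the groups did not overlap. DESeq2 called 1 model (0.00812%). edgeR with same-numbered samples blocked also called 1 (0.00812%), and 668 of the 12314 models then had an unadjusted p under 0.05. With no filter on low counts it called 111 of 48983 (0.227%). DESeq2 and the block called the same model, AMEX60DD301010901.2, to which the files give no symbol. Its levels were 71.8, 55.7 and 59.5 CPM in intact and 30.7, 25.9, 28.7 and 35.7 CPM in contra members, with no overlap. The log2 fold change was -1.08 ± 0.16 (SE) with an edgeR adjusted p of 0.292, and -1.15 ± 0.11 with the block (adjusted p = 0.00898, lower in 3 of 3 pairs). DESeq2 gave an adjusted p of 0.000243. The groups did not overlap for this model in GZMA T, ICOS T, CD79B, epidermal-marker and haemoglobin-rich cells either. They overlapped in LEF1/CCR7-low T cells, at 22.9 to 71.6 CPM in intact and 16.1 to 32.6 CPM in contra samples. Counts of the model were low in that set, with 10 UMIs in intact sample 4 and 5 in contra sample 2. In ICOS T cells contra sample 4 had 9.

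S1PR4, KLF2, SATB1, ETS1, CD28 and the effector genes CCL5 and CTSW did not pass the test. The gate genes LEF1 and CCR7 did not pass it either. In both groups, cells below a lowest summed count of LEF1 and CCR7 had been left out by the gate. The test therefore cannot decide whether LEF1 or CCR7 changed in T cells as a whole, and their values describe members only. LEF1 was at 471, 543 and 509 CPM in intact and 456, 488, 477 and 524 CPM in contra members, with overlapping groups and a log2 fold change of -0.09 ± 0.10. The log2 fold change was 0.08 ± 0.10 for CCR7, 0.12 ± 0.10 for S1PR4, -0.25 ± 0.14 for KLF2, -0.09 ± 0.12 for SATB1 and -0.20 ± 0.15 for CCL5. ETS1, CD28 and CTSW stood at -0.04, -0.04 and -0.03, values that changed sign under some settings. Below the threshold, ITGA6, an integrin subunit, was at 22.5, 19.2 and 21.6 CPM in intact and 13.1, 15.1, 13.6 and 18.3 CPM in contra members (log2 -0.55 ± 0.15, edgeR adjusted p = 1.00). ARRB1, which encodes a beta-arrestin that binds activated adrenergic receptors, was at 23.3, 26.2 and 23.8 CPM in intact and 30.2, 40.0, 28.1 and 35.2 CPM in contra members, without overlap (log2 0.41 ± 0.12, edgeR adjusted p = 1.00). KLF3, a relative of KLF2, was at 22.5, 20.9 and 20.2 CPM in intact and 15.3, 12.4, 18.1 and 13.0 CPM in contra members (log2 -0.53 ± 0.17).

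By list, 0 models were called in each of the 12 lists. Some lists include genes of the gate, such as LEF1 and CCR7 in the naive and quiescence list. Median log2 changes were -0.07 over 24 naive and quiescence models, 0.01 over 14 effector models, -0.01 over 31 adrenergic and cAMP models and 0.03 over 22 mTOR and PI3K models, beside 0.01 over all models tested. The 21 immediate early models had a median of -0.44, with 18 of them lower in contra. That median rested on intact sample 1, without which it was 0.08: the immediate early gene IER2 was at 269 CPM in that sample, at 132 and 138 CPM in the other intact samples and at 126, 118, 161 and 79.0 CPM in the contra samples.

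**Figure D5:**
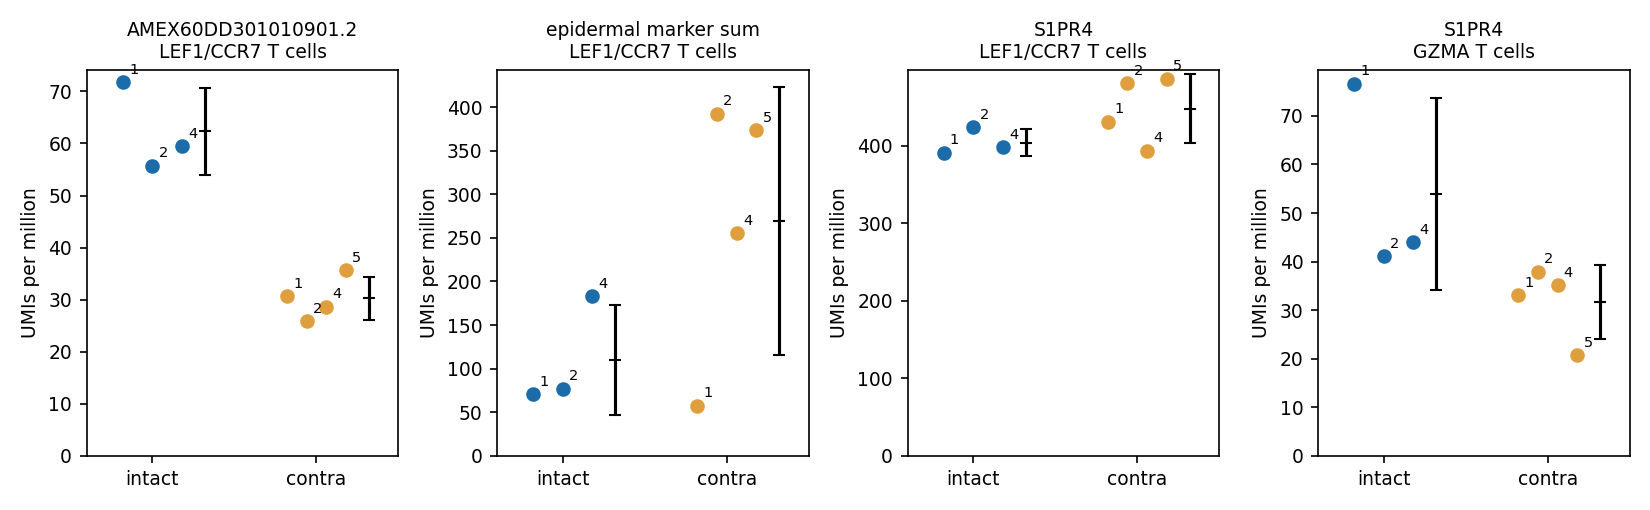
Levels in CPM of AMEX60DD301010901.2, the summed epidermal markers and S1PR4 in LEF1/CCR7 T cells, and of S1PR4 in GZMA T cells, with 1 numbered point per sample and the mean and SD of each group. AMEX60DD301010901.2 lies at 55.7 to 71.8 CPM in intact and 25.9 to 35.7 CPM in contra samples, and S1PR4 in LEF1/CCR7 T cells overlaps between the groups.

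Leaving out contra sample 1 also moved the number of calls. Without it, edgeR called 13 models (0.109%), 12 of them higher in contra, among them ANXA1 (log2 2.24 ± 0.26, adjusted p = 0.0105). ANXA1, which encodes an annexin, was at 4.51, 5.23 and 10.1 CPM in intact and 2.78, 34.6, 21.7 and 33.3 CPM in contra members, and KRT12, a keratin gene, at 42.4, 48.5 and 140.3 CPM and 31.9, 399, 242 and 335 CPM. The summed epidermal markers in members ordered the 7 samples in the same way, at 70.8, 77.0 and 183 CPM in intact and 57.5, 393, 255 and 374 CPM in contra samples, with KRT14 at 0. In GZMA T cells of the same samples they were at 75.8, 74.2 and 167 CPM and at 56.7, 437, 256 and 469.9 CPM. Epidermal-marker cells were 4.14%, 3.28% and 33.5% of the intact samples and 4.69%, 21.3%, 33.5% and 47.7% of the contra samples. Their part in these calls was not tested.

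Whether the contra effect differed between LEF1/CCR7 and GZMA T cells was tested as an interaction within samples. edgeR called 5 of 13336 models (0.0375%), and 621 (4.66%) had an unadjusted p under 0.05. The count was 12 without intact sample 2, 8 without intact sample 4, and 11, 24 and 8 without contra samples 1, 4 and 5. Single cells held most UMIs of 4 of them in some samples: 1873 of the 1937 UMIs of AMEX60DD301000274.7 in contra sample 1 members were in 1 cell, and 639 of the 647 PSAP UMIs in contra sample 2 GZMA T cells were in 1 cell. In intact sample 2 GZMA T cells, 1 cell held 49 of the 51 LGALS3BP UMIs and 1 cell held 328 of the 344 LOC115097539 UMIs. With the highest cell of each model and sample left out, a setting chosen after seeing the data, 4 models were called, of which 1 had also been called with all cells. That model was AMEX60DDU001001994.2, without a symbol, with a difference of 0.97 ± 0.17 (adjusted p = 0.0197) with all cells and 0.98 (adjusted p = 0.00616) without the highest cells. It lost the call without intact sample 2 (0.90), without contra sample 2 (0.92) and with doublet calls left out (0.85). It was at 18.8, 30.6 and 33.5 CPM in intact and 24.4, 39.0, 38.9 and 28.4 CPM in contra members, and at 107, 195 and 186 CPM and 104, 105, 96.8 and 66.2 CPM in GZMA T cells.

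S1PR4 was among the other 3. Its log2 fold change in contra was 0.12 ± 0.10 in LEF1/CCR7 T cells and -0.81 ± 0.27 in GZMA T cells, a difference of 0.86 ± 0.19 with an edgeR adjusted p of 0.188 with all cells and 0.0277 without the highest cells. Without intact sample 1, where GZMA T cells had 76.6 CPM, the difference was 0.53 (adjusted p = 1.00). The gate gene LEF1 had a log2 fold change of -0.09 in LEF1/CCR7 T cells and -0.77 in GZMA T cells. Its difference was 0.65 ± 0.17 (edgeR adjusted p = 0.440). The gate set a lowest LEF1 and CCR7 count in members only, and S1PR4 levels varied with that count. Whether this shaped the S1PR4 difference was not tested. TNFSF13B, the gene of the B cell survival factor BAFF, differed by 1.38 ± 0.28 (adjusted p = 0.0995), and by 1.49 (0.0277) without the highest cells.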

How the data were processed

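The deposited files give each cell's UMI counts without normalization, by gene model, made with kallisto 0.48.0 and Seurat 4.2.0 per the submitters' processing notes; the genome build was not given in the sources used here. No deposited cell fell below 3003 UMIs or 1000 genes, and mitochondrial UMIs stayed under 20%. Symbols were read from the files. Members, lists and settings were chosen with earlier results of these data known.

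Counts were summed per sample over members and tested with edgeR 4.0.16 (quasi-likelihood, TMM, filterByExpr, Benjamini-Hochberg; R 4.3.3), with DESeq2 1.42.0 as an alternative. Sample values used exact permutation tests. Levels were compared as log2(CPM + 10). On simulated counts for the contra comparison over 12314 models, 100 models were changed 2-fold and another 100 were changed 4-fold. Of these changes 54% and 97% were recovered, and 23 unchanged models were called. The adjusted threshold depends on how many models change. Fewer changes were not simulated, so these shares do not give the recovery for data with 0 calls.

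Same-numbered samples had correlated deviations (0.334, 0.425 and 0.135), beside -0.346 to 0.0918 for samples of different numbers. The main edgeR fit and the exact permutation tests did not use the numbers. They served as a block or as pairs only in alternative analyses. Doublets were scored with Scrublet (scanpy 1.11.5) and kept: 439 of 35013 cells scored above 0.25, 19 of them members. In all, 118 barcodes occurred in more than 1 sample, 17 of them among members, and 0 were shared between members of different samples. Intact sample 5 was not analysed here, and some genes of the lists are not reported here. Named genes were the list members, models called, the 8 symbols with the smallest p in each direction, the 12 largest differences each way and the 15 most variable symbols. No strand or multi-copy information was used, so near-identical and overlapping genes may share counts.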

Additional observations from a re-analysis of the deposited data

Results flagged for a closer look

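In contra LEF1/CCR7 T cells, 1 sample stood apart from the others for 2 gene models: LOC115080527 at 17.6 CPM in contra sample 1 and NCKAP5 at 3.96 CPM in contra sample 1. In all, 43 groups of 4 samples were tested, and chance sets about 1 in 20 such groups apart.

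The change between contra and intact differed between LEF1/CCR7 T cells and GZMA T cells for 5 gene models (log2 difference, edgeR interaction test). AMEX60DD301000274.7 differed by 7.95 (adjusted p = 1.28e-04) and by 0.22 (adjusted p = 1.00) without the highest cells, and lost the call without intact sample 1 (3.97) and without contra sample 1 (4.10). LGALS3BP differed by 3.60 (adjusted p = 0.00584), and lost the call without intact sample 2 (3.08) and with doublet calls left out (3.24). LOC115097539 differed by 2.05 (adjusted p = 0.00956) and by 0.93 (adjusted p = 1.00) without the highest cells, and lost the call without intact sample 1 (1.53) and with doublet calls left out (0.27). PSAP differed by -6.24 (adjusted p = 0.0112), and lost the call without intact sample 1 (-3.26) and without contra sample 2 (-2.09). AMEX60DDU001001994.2 differed by 0.97 (adjusted p = 0.0197).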

How the results depend on the processing

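Between contra and intact LEF1/CCR7 T cells, edgeR called 0 models; DESeq2's Wald test called 1, the fit with the replicate number as a block 1, and the fit with no filter on low counts 111 (0.227% of 48983). Leaving out each sample gave 0 to 13 calls, the 13 without contra sample 1, and leaving out the highest cell of each model 0. The block changed no other call reported. The interaction test gave 5 calls with all cells, 55 with no filter, 2 with doublet calls left out and 5 to 24 with 1 sample left out. Symbols higher and lower than in GZMA T cells numbered 106 and 185 with a pseudocount of 1 CPM. They numbered 46 and 99 with no filter on low values, as with it, which the scale of log2(CPM + 10) made nearly certain. Of 5546 symbols at 10 CPM in both sets, 29 were higher and 74 lower. Leaving out each sample moved the difference in share of all cells from -3.41 to -0.54 percentage points, that among T cells under the MKI67 and TOP2A limit from -4.60 to 1.71 (reversed without intact sample 2), that in CD8B share from -4.44 to -2.60 and that in median UMIs from -2224.5 to -724; with 1 sample left out the exact test of these cannot reach 0.05. With 1 sample left out, the log2 change of ETS1 ran from -0.074 to 0.015, that of CD28 from -0.14 to 0.0039 and that of CTSW from -0.16 to 0.059 (0.050 with the block); the cause was not tested. Of 770 alternative values, 712 were marked as unchanged, 646 of them for single models. For counts of calls or symbols this meant a similar count, and otherwise the same direction and side of the threshold. Some values could not have crossed the threshold, such as the exact tests with 1 sample left out, so this number does not measure robustness. The settings for the highest cells, the CD8B share and the levels were chosen after seeing the data. On simulated counts over 12314 models, with 100 4-fold changes also present, edgeR recovered 54 of 100 2-fold changes and called 23 unchanged models. Recovery with fewer changed models was not simulated.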

Other observations

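Several gene models near AMEX60DD301010901.2 in the order of the deposited gene list were also lower in contra LEF1/CCR7 T cells. Of the 50 models around it, a window chosen after the values were seen and given with no test, 21 were tested, of which 15 had a log2 change below 0 and 6 above. In 4 (19.0%) the groups did not overlap, beside 2.97% of all models tested, and these 4 were lower in contra. They included a model named MR1, the MHC class I-related gene that presents metabolites to T cells, at 46.3, 37.5 and 39.0 CPM in intact and 29.6, 23.8, 32.3 and 22.7 CPM in contra members (log2 -0.59 ± 0.18). For that MR1 model and AMEX60DD201010877.1, also among the 4, the pattern was not particular to these cells. Their groups did not overlap in GZMA T, ICOS T, LEF1/CCR7-low T, epidermal-marker and haemoglobin-rich cells either. In the small sets this rested on few UMIs. In contra sample 4 the MR1 model had 3 UMIs in ICOS T cells and 4 in LEF1/CCR7-low T cells. In CD79B cells the groups overlapped. AMEX60DD201010877.1 was at 127 to 176 CPM in intact and 54.5 to 96.0 CPM in contra epidermal-marker cells. TAP1, the peptide transporter of antigen presentation, lay in the same stretch with a log2 change of -0.68 and overlapping groups. A model named PSMB9, a subunit of the immunoproteasome, and LOC111190578 went the other way, by 0.44 and 1.40, also with overlapping groups. Another model named PSMB9, not among the 21, was lower in contra at an unadjusted edgeR p under 0.05. None of these passed the adjusted threshold. The order of a list is not a map position, and the genomic distance between these models was not analysed here.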
